A study of Mus musculus with 14 samples.

Results

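The 39 genes described here mark macrophages, dendritic cells, and neutrophils or belong to their Fc receptors, uptake receptors, and oxidase. They were given by name and chosen with earlier results of these data known. Each was looked up by its gene symbol in the kidney transcriptome of 14 male C57BL/6J mice. All 39 were found among the 21878 genes listed. Levels are FPKM, that is, fragments scaled to transcript length and to the number of mapped fragments. A gene was tested if it reached 0.1 FPKM in at least 3 mice, which held for 37 of the 39 genes. Marco, a scavenger receptor of resident macrophages, stayed at or below 0.0440 FPKM, and Arg1, which encodes the arginine-degrading enzyme arginase, at or below 0.131 FPKM.

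The 4 groups were WT control (n = 3), Cfb-/- control (n = 3), WT diabetic (n = 4), and Cfb-/- diabetic mice (n = 4). Cfb-/- mice lack complement factor B in the whole body, and the sample labels call this genotype a knockdown where the methods of the study call it a knockout. Diabetic mice had been fed a high-fat diet (HFD) with 60% of calories from fat for 4 weeks and then injected with streptozotocin (STZ), a toxin of insulin-producing cells, at 60 mg/kg for 5 days. Control mice had received chow with 10% of calories from fat and citrate buffer, although the treatment field of their labels reads as for diabetic mice while the diet and disease fields name them healthy controls. The methods give an age of 8 weeks at the start and 21 weeks from STZ to sacrifice, whereas the labels give 34 weeks without a starting point. Because the controls got neither agent, the effects of HFD, of STZ itself, and of the diabetes they cause cannot be told apart. The labelled tissue was kidney, a mix of cell types in which 8 proximal tubule markers summed to between 1907 and 7599 FPKM in every mouse, so fewer cells of a type and less RNA per cell cannot be told apart either.

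Macrophages of the kidney live between the tubules and depend on the growth factor CSF1 and its receptor. Their identity is set by PU.1, the transcription factor encoded by Spi1. They bind antibody-coated particles through Fc receptors, most of which signal through an adaptor chain, and take up lipids and debris through scavenger receptors. Dendritic cells share much of this equipment but depend on the receptor FLT3, and neutrophils are short-lived blood cells that carry the S100A8 and S100A9 proteins.

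The targeted gene went with the genotype labels in every mouse. Cfb stood at 131, 62.2, and 126 FPKM in WT control mice and at 78.8, 81.9, 72.7, and 56.7 FPKM in WT diabetic mice. In Cfb-/- mice it ranged from 2.05 to 2.22 FPKM in controls and from 1.13 to 1.43 FPKM in diabetic mice. Relative sequencing depth, read from the steps between low values, lay between 0.838 and 1 of the deepest mouse. Markers of urothelium, the lining of the renal pelvis, summed to between 8.72 and 46.3 FPKM in 5 mice, namely WT diabetic mice 2, 3, and 4 and Cfb-/- control mice 1 and 3. They summed to between 0.279 and 3.15 FPKM in the other 9 mice. Counts of genes at the adjusted threshold are given below also without these 5 mice.

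Diabetic kidneys held more RNA of this gene set than control kidneys in both genotypes. Summed over the 37 tested genes, the level was 127 to 159 FPKM in WT control mice, 117 to 151 FPKM in Cfb-/- control mice, 369 to 542 FPKM in WT diabetic mice, and 337 to 574 FPKM in Cfb-/- diabetic mice. In the WT comparison, 33 of the 37 genes rose at a Benjamini-Hochberg adjusted p under 0.05 in limma, where 36.2% of all 14912 tested genes rose. Fcgr2b fell (9.97% of all genes fell), and S100a8, S100a9, and Xcr1 did not pass. The median log2 difference of the 37 genes was 1.60, against 0.29 over all tested genes.

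In the Cfb-/- comparison, which shares no mouse with the first, 31 of the 37 genes rose, where 27.4% of all tested genes rose. S100a9 was the gene called lower (6.40% of all genes), and Csf1r, Fcgr2b, Nos2, S100a8, and Chil3 did not pass. The median log2 difference was 1.94, against 0.22 over all tested genes. By the criteria of the study, an unadjusted p under 0.05 with a change over 2-fold, 29 genes rose in WT mice (15.6% of all genes) and 27 in Cfb-/- mice (13.3%). These thresholds were applied to the limma fit, whereas the study used a count-based test. Across both genotypes, all 8 diabetic mice stood above all 6 control mice for 29 of the 37 genes, which held for 20.8% of all tested genes.

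**Figure D1:**
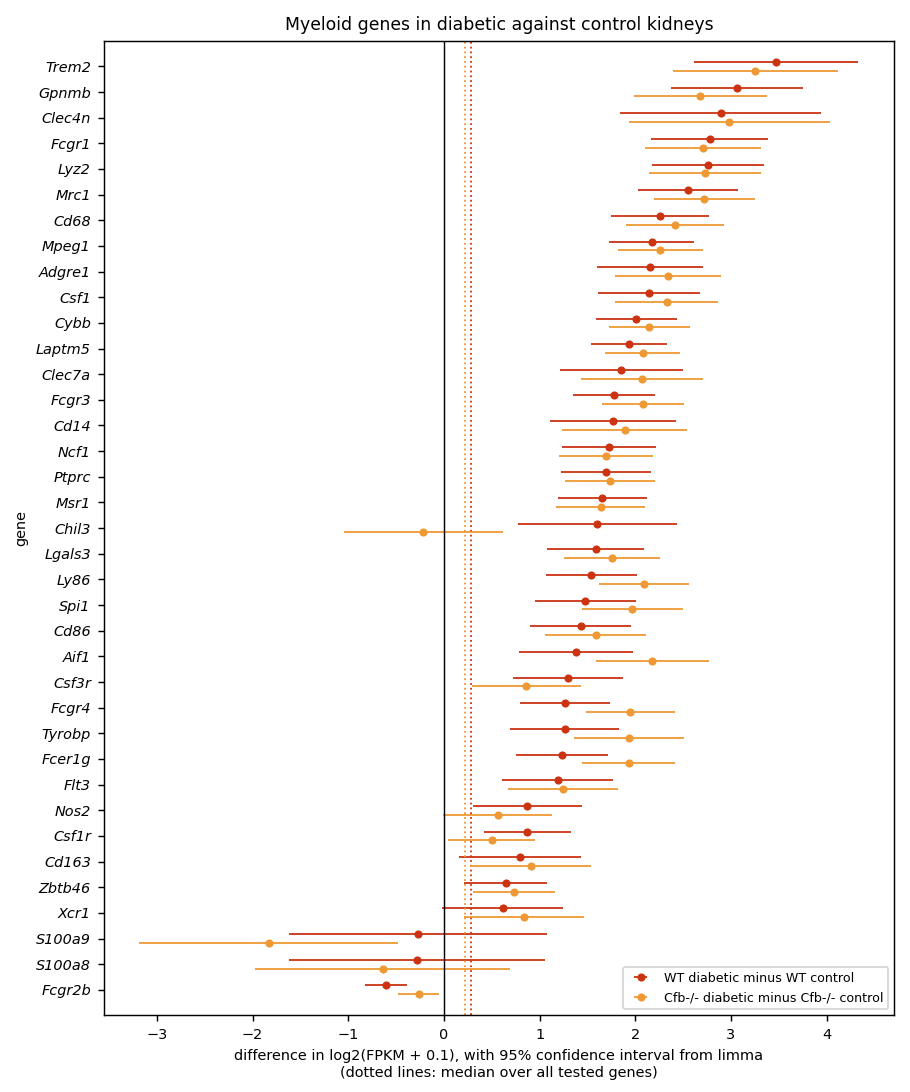
Difference in log2(FPKM + 0.1) between diabetic and control mice for the 37 tested genes, in WT mice (red) and Cfb-/- mice (orange), with the 95% confidence interval from limma (horizontal bars). Dotted lines mark the median over all tested genes, at 0.29 and 0.22. Trem2 has the largest difference in both genotypes on this scale, and Fcgr2b is the lowest in WT mice.

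Cd163 and Msr1 reached 0.1 FPKM in diabetic mice only, so they passed the filter through the groups in which they are high. With no filter, all 39 genes were tested, and 33 rose in WT mice (29.7% of all genes) and 31 in Cfb-/- mice (22.8%). When the 5 mice with urothelium markers were left out together, a choice made after seeing the data, 25 genes rose in WT mice (10.2% of all genes) and 27 in Cfb-/- mice (14.1%), with median log2 differences of 1.67 and 1.99. The set then lay 1.35 above the median of all genes in WT mice and 1.68 above it in Cfb-/- mice. Between genotypes, the median log2 difference of the set was -0.06 in diabetic mice and -0.19 in control mice. Over all tested genes these medians were 0.03 and -0.01. The WT diabetic and Cfb-/- control groups then had 1 mouse each, assumed to vary like the others. Calls lost in WT mice were those of Cd163, Cd86, Chil3, Csf1r, Csf3r, Flt3, Nos2, Zbtb46, and Fcgr2b, and in Cfb-/- mice those of Cd163, Csf3r, Xcr1, Zbtb46, and S100a9. Scaling each mouse by the median ratio to the other mice lowered the median of all genes from 0.29 to 0.03 in WT mice and evened the calls over all genes to 22.7% higher and 22.4% lower. The gene set then lay 1.40 above that median in WT mice, compared with 1.32 without scaling, and 31 of its genes were called higher. In Cfb-/- mice this scaling gave 18.5% higher and 14.1% lower over all genes, with 29 genes of the set called higher.

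**Figure D2:**
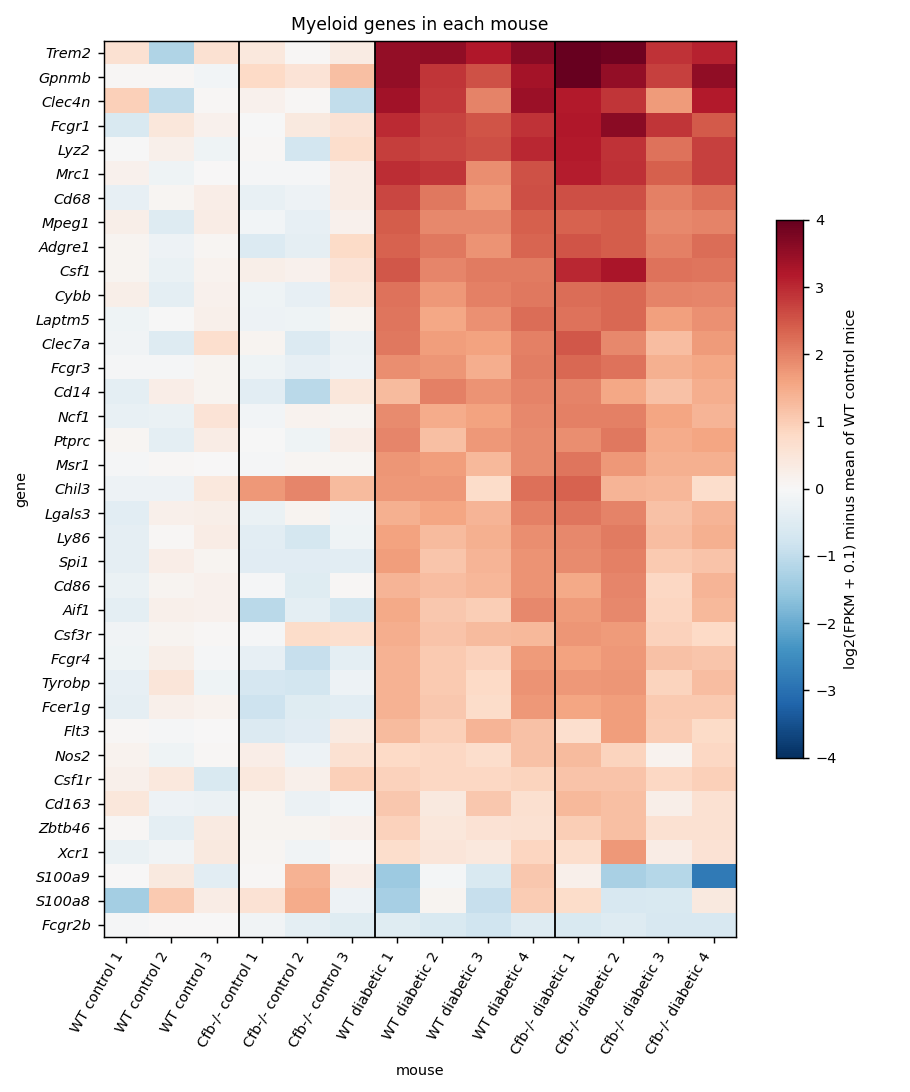
Level of the 37 tested genes (rows) in each of the 14 mice (columns), as log2(FPKM + 0.1) minus the mean of the WT control mice. Black lines separate the groups. Most rows are red in all 8 diabetic mice, with darker columns for Cfb-/- diabetic mice 1 and 2 and for WT diabetic mice 1 and 4.

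Growth factors and their receptors rose to different extents. Csf1, the growth factor that macrophages need to survive, measured 1.61, 1.22, and 1.65 FPKM in WT control mice and 1.76, 1.66, and 2.23 FPKM in Cfb-/- control mice. It measured 8.65, 5.97, 6.63, and 6.57 FPKM in WT diabetic mice and 12.7, 14.97, 6.97, and 6.90 FPKM in Cfb-/- diabetic mice. Every diabetic mouse was above every control mouse, and Cfb-/- diabetic mice 1 and 2 stood highest. Csf1 rose by 2.14 on the log2 scale in WT mice (SE 0.25, limma adjusted p = 2.55e-05) and by 2.33 in Cfb-/- mice (SE 0.25, adjusted p = 1.57e-05).

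Its receptor Csf1r was already among the more abundant genes of the set in control kidneys and rose less. It stood at 10.3, 11.8, and 5.72 FPKM in WT control mice, 11.8, 10.1, and 17.3 FPKM in Cfb-/- control mice, 16.9, 15.8, 15.8, and 16.4 FPKM in WT diabetic mice, and 19.6, 19.7, 15.9, and 17.3 FPKM in Cfb-/- diabetic mice. Cfb-/- control mouse 3 lay inside the diabetic range. Csf1r rose by 0.87 in WT mice (SE 0.21, limma adjusted p = 0.00476), whereas the difference of 0.50 in Cfb-/- mice did not pass (SE 0.21, adjusted p = 0.0835). Without that control mouse, it was 0.72 (adjusted p = 0.0215). The 2 differences were not shown to be unequal, since their interaction was -0.37 (SE 0.30, unadjusted p = 0.240).

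The receptors of other lineages were far lower in level. Csf3r, the receptor of the neutrophil growth factor G-CSF, ranged from 0.0986 to 0.259 FPKM in control mice and from 0.280 to 0.647 FPKM in diabetic mice. Flt3, the receptor on which dendritic cells depend, ranged from 0.0322 to 0.151 FPKM in control mice and from 0.212 to 0.520 FPKM in diabetic mice. Both rose in both genotypes, Csf3r by 1.29 and 0.86 and Flt3 by 1.19 and 1.24 (limma adjusted p from 0.00165 to 0.0226). The Csf3r call in Cfb-/- mice was lost without diabetic mouse 1 (adjusted p = 0.0737), diabetic mouse 2 (0.0701), or control mouse 1 (0.123). It was also lost with median-ratio scaling (0.0588). With quantile normalization neither gene was called in either genotype (limma adjusted p from 0.0766 to 0.605). The WT and Cfb-/- differences were then 0.51 and 0.18 for Csf3r and 0.42 and 0.62 for Flt3.

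**Figure D3:**
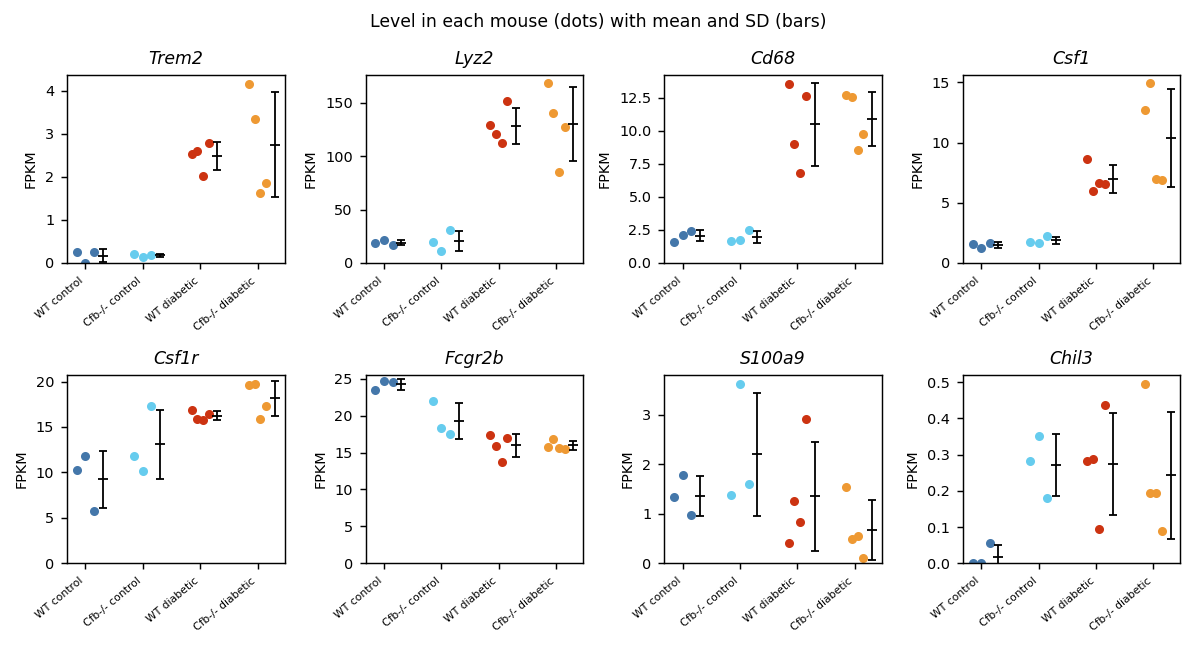
FPKM in each mouse (dots) with the mean and SD of its group (black bars) for 8 genes of the set. Trem2, Lyz2, Cd68, and Csf1 lie higher in all 8 diabetic mice, Fcgr2b lies lower in all of them, and S100a9 and Chil3 overlap between diabetic and control mice.

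Of the lineage transcription factors, Spi1, which encodes PU.1, stood at 1.02, 1.64, and 1.46 FPKM in WT control mice and 0.965, 0.956, and 0.986 FPKM in Cfb-/- control mice. In diabetic mice it was 4.51, 3.02, 3.60, and 4.93 FPKM in WT and 5.31, 5.74, 2.93, and 3.11 FPKM in Cfb-/- mice. The lowest diabetic mouse had 2.93 FPKM and the highest control mouse 1.64 FPKM, and the rise was 2.78-fold in WT mice and 3.92-fold in Cfb-/- mice (limma adjusted p = 0.000354 and 4.82e-05). Zbtb46, a factor of classical dendritic cells that endothelium also makes, rose less. It ranged from 0.665 to 1.18 FPKM in control mice and from 1.29 to 2.23 FPKM in diabetic mice, with log2 differences of 0.64 (limma adjusted p = 0.0184) and 0.73 (adjusted p = 0.0119). The WT call was lost without diabetic mouse 1 (adjusted p = 0.0564) or control mouse 2 (0.1002), and the WT sign turned with quantile normalization (log2 -0.019). Median-ratio scaling also lost the WT call (limma adjusted p = 0.0796), and quantile normalization lost the Cfb-/- call (0.411). Beside it, 3 of 6 endothelium markers rose in WT mice (36.2% of all genes) and 5 of 6 in Cfb-/- mice (27.4%). The median log2 differences of these markers were 0.42 and 0.67, against 0.29 and 0.22 over all tested genes. Their part in the Zbtb46 result was not tested.

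PU.1 commonly binds DNA at a GAGGAA core, so promoters of the set were searched for those letters on either strand. RefSeq promoters of GRCm38.p6, the build named in the submitters' processing notes, were used from 250 bases before to 50 bases after the start. Of the 37 tested genes, 28 had an entry. Csf1r, Spi1, Adgre1, Cd14, Cd86, Tyrobp, Clec4n, Msr1, and Nos2 had none, and Marco and Arg1 were not searched. GAGGAA or its reverse complement TTCCTC occurred in 13 of the 28 promoters (46.4%), compared with 7652 of all 27025 promoters (28.3%). The promoters of 4 genes are shown in lower case with these letters in capitals, chosen as the gene that fell (Fcgr2b, no match), its neighbour that rose (Fcgr4, 1 match), the gene with the largest difference on the log2(FPKM + 0.1) scale (Trem2, 1 match), and the promoter with most matches (Mrc1, 3 matches). They lie at chr1:170976022-170976321 on the minus strand and at chr1:171018676-171018975, chr17:48346151-48346450, and chr2:14229164-14229463 on the plus strand. Among the promoters not shown, genes that rose were found with and without a match. Lyz2, Gpnmb, Mpeg1, and Fcer1g rose and had no match, whereas S100a8 had 2 matches and was not called higher.
Fcgr2b: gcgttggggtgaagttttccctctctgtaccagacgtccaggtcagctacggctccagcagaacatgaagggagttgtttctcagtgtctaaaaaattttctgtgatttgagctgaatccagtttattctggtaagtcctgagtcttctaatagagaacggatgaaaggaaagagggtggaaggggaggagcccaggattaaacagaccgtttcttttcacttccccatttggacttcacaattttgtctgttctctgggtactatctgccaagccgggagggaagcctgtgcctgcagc
Fcgr4: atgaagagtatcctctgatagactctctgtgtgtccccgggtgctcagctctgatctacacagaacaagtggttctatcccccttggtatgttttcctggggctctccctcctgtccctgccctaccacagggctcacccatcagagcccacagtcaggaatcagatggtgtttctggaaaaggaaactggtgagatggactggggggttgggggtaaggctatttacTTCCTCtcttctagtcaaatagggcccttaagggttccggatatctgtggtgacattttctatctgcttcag
Trem2: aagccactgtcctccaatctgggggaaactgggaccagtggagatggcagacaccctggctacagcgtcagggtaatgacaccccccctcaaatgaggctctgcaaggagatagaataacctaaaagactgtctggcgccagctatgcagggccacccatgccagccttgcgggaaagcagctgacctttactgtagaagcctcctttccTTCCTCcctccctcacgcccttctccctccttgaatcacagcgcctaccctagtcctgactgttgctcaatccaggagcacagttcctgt
Mrc1: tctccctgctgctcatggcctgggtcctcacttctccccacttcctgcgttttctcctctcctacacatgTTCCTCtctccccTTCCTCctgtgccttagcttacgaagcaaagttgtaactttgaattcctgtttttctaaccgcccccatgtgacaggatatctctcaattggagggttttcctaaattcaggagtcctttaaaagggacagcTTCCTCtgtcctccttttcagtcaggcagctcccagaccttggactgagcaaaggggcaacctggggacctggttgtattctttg

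All 10 general leukocyte and macrophage markers rose in both genotypes. Lyz2, which encodes the lysozyme of macrophages and neutrophils, was the most abundant of them and rose most. It stood at 18.6, 21.6, and 16.6 FPKM in WT control mice, 19.3, 11.3, and 30.9 FPKM in Cfb-/- control mice, 129, 121, 113, and 152 FPKM in WT diabetic mice, and 169, 140.0, 84.8, and 127 FPKM in Cfb-/- diabetic mice. Diabetic and control mice did not overlap, and the rise was 6.76-fold in WT mice (log2 SE 0.27, limma adjusted p = 8.30e-06) and 6.65-fold in Cfb-/- mice (log2 SE 0.27, adjusted p = 9.16e-06). Its near copy Lyz1 can share reads with it, so the split between the pair is uncertain.

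Cd68, a lysosomal glycoprotein of macrophages, stood at 1.60, 2.13, and 2.45 FPKM in the WT control group and 13.6, 9.01, 6.78, and 12.6 FPKM in the WT diabetic group. Cfb-/- mice were alike in range, with 1.63, 1.77, and 2.50 FPKM in controls and 12.7, 12.5, 8.55, and 9.78 FPKM in diabetic mice. Adgre1, which encodes the mouse macrophage antigen F4/80, ranged from 0.800 to 2.14 FPKM in control mice and from 4.45 to 7.39 FPKM in diabetic mice. Both genes rose more than 4-fold in each genotype (Cd68 4.79-fold and 5.33-fold, Adgre1 4.45-fold and 5.07-fold).

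Aif1, a calcium-binding protein of activated macrophages also called IBA1, had the smallest WT difference among the 10 markers. Its values were 1.39, 2.14, and 2.10 FPKM in WT control mice, 0.814, 1.37, and 1.10 FPKM in Cfb-/- control mice, 5.42, 4.04, 3.74, and 7.33 FPKM in WT diabetic mice, and 6.23, 7.20, 3.45, and 4.72 FPKM in Cfb-/- diabetic mice. The 3 Cfb-/- control mice were the lowest of all. Aif1 rose by 1.38 in WT mice (SE 0.28, limma adjusted p = 0.00132) and by 2.18 in Cfb-/- mice (SE 0.28, adjusted p = 5.24e-05).

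The other 6 markers rose between 1.43 and 2.17 on the log2 scale in WT mice and between 1.59 and 2.26 in Cfb-/- mice. Mpeg1, the pore-forming perforin-2 of phagocytes, rose most of these and had 15.9 to 22.4 FPKM in diabetic mice, against 2.82 to 5.02 FPKM in controls. Laptm5, a lysosomal protein of leukocytes, ranged from 4.99 to 6.72 FPKM in controls and from 17.1 to 28.7 FPKM in diabetic mice. Ptprc, the CD45 phosphatase of all leukocytes, ranged from 1.14 to 1.89 FPKM and from 3.61 to 6.87 FPKM. Ly86, which pairs with the toll-like receptor homolog RP105, Cd14, the co-receptor for bacterial lipopolysaccharide, and Cd86, a ligand that co-stimulates T cells, made up the rest, and no control mouse reached a diabetic mouse in any of the 6.

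Fc receptors and their adaptors split in direction. Fcgr1, the high-affinity receptor for IgG and a macrophage marker, stood at 0.191, 0.505, and 0.403 FPKM in WT control mice and 0.338, 0.486, and 0.567 FPKM in Cfb-/- control mice. It reached 3.44, 2.82, 2.44, and 3.21 FPKM in the WT diabetic group and 4.01, 5.28, 3.15, and 2.33 FPKM in Cfb-/- diabetic mice. The groups did not overlap, and the rise was 6.86-fold (limma adjusted p = 1.04e-05) and 6.54-fold (adjusted p = 1.35e-05).

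Fcgr2b, the inhibitory IgG receptor, which liver and other sinusoidal endothelium makes as well as leukocytes, went the other way. It was the most abundant gene of the set in WT control mice, at 23.4, 24.8, and 24.6 FPKM, and stood at 17.4, 15.9, 13.8, and 16.96 FPKM in WT diabetic mice. Cfb-/- control mice lay between, at 22.1, 18.4, and 17.5 FPKM, and Cfb-/- diabetic mice had 15.8, 16.8, 15.6, and 15.5 FPKM. All 8 diabetic mice were below all 6 control mice, which held for 4.47% of all tested genes. Fcgr2b fell by 0.60 on the log2 scale in WT mice (SE 0.10, limma adjusted p = 0.000363). The difference in Cfb-/- mice was -0.27 (SE 0.10, adjusted p = 0.0568), and it passed with median-ratio scaling (log2 -0.51, adjusted p = 0.00265), quantile normalization (-0.39, 0.0116), or without Cfb-/- control mouse 3 (-0.33, 0.0402). The WT call was lost when the mice with urothelium markers were left out (log2 -0.48, adjusted p = 0.0604).

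The activating partners of Fcgr2b lie beside it on chromosome 1 and rose. In GRCm38.p6, Fcgr2b spans chr1:170960558-170976071, followed by Fcgr4 at chr1:171018926-171029761, Fcgr3 at chr1:171051169-171065915, and Fcer1g at chr1:171229572-171234349. Fcgr4, an activating IgG receptor, stood at 2.13, 2.83, and 2.30 FPKM in WT control mice, 1.89, 1.22, and 1.80 FPKM in Cfb-/- control mice, 6.51, 5.09, 4.60, and 8.02 FPKM in WT diabetic mice, and 7.54, 8.23, 5.51, and 5.24 FPKM in Cfb-/- diabetic mice. Fcer1g, the shared signalling chain of activating Fc receptors, stood at 10.95, 16.3, and 15.4 FPKM in WT control mice, 7.78, 9.91, and 10.4 FPKM in Cfb-/- control mice, 37.2, 29.6, 23.5, and 46.4 FPKM in WT diabetic mice, and 41.8, 45.3, 29.2, and 29.3 FPKM in Cfb-/- diabetic mice.

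Both genes were higher in every diabetic mouse than in any control mouse. Fcgr4 rose 2.40-fold in WT and 3.86-fold in Cfb-/- mice, and Fcer1g rose 2.35-fold and 3.81-fold (limma adjusted p at most 0.000695). Fcgr3, the low-affinity activating receptor, ranged from 1.42 to 1.95 FPKM in control mice and from 4.95 to 9.15 FPKM in diabetic mice. Tyrobp, the adaptor DAP12 that carries the signal of TREM2 and other receptors, ranged from 9.09 to 21.1 FPKM and from 26.4 to 52.5 FPKM. Both rose in both genotypes, Fcgr3 by 1.78 and 2.08 and Tyrobp by 1.26 and 1.94 on the log2 scale. The extracellular parts of Fcgr2b and Fcgr3 are closely alike in sequence, so reads shared by the pair make their split uncertain.

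Of the receptors for sugars and lipids, Trem2 had the largest log2 difference of the set in both genotypes with 0.1 FPKM added. Trem2 encodes a lipid-sensing receptor of macrophages. It was near the floor in control kidneys, at 0.254, 0, and 0.249 FPKM in WT and 0.207, 0.139, and 0.191 FPKM in Cfb-/- mice, and stood at 2.54, 2.60, 2.01, and 2.78 FPKM in WT diabetic mice and 4.16, 3.35, 1.62, and 1.86 FPKM in Cfb-/- diabetic mice. Cfb-/- diabetic mice 1 and 2 were the highest and mice 3 and 4 the lowest of the 8. The log2 difference was 3.47 in WT mice (SE 0.40, limma adjusted p = 2.44e-05) and 3.26 in Cfb-/- mice (SE 0.40, adjusted p = 4.25e-05). Because of the low control level the size depends on the constant added before the logarithm, and the WT difference was 1.58 with 1 FPKM added and 4.81 with 0.01 FPKM added. The rank depends on it too, since Lyz2 was above Trem2 with 1 FPKM added (2.70 in WT mice, and 2.67 against 1.61 in Cfb-/- mice) and Clec4n was above Trem2 in Cfb-/- mice with 0.01 FPKM added (4.50 against 3.77).

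Clec7a, the dectin-1 receptor for fungal beta-glucan, had 0.620 to 1.59 FPKM in control mice and 2.41 to 5.83 FPKM in diabetic mice. It rose 3.62-fold in WT mice and 4.20-fold in Cfb-/- mice. Clec4n, the dectin-2 receptor, was listed at 0 in WT control mouse 2 and Cfb-/- control mouse 3 and was at most 0.284 FPKM in the other controls, compared with 0.554 to 2.02 FPKM in diabetic mice. Clec4n rose by 2.89 and 2.98 on the log2 scale (SE 0.49, limma adjusted p = 0.000391 and 0.000366), a size that carries the same dependence on the added constant.

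The 3 tested scavenger receptors rose in both genotypes, at very different levels. Mrc1, the mannose receptor CD206, had 0.617, 0.463, and 0.544 FPKM in WT control mice, 0.523, 0.521, and 0.677 FPKM in Cfb-/- control mice, 4.84, 4.55, 2.20, and 3.60 FPKM in WT diabetic mice, and 5.54, 4.73, 3.25, and 4.11 FPKM in Cfb-/- diabetic mice. It rose 5.86-fold in WT mice (limma adjusted p = 6.55e-06) and 6.60-fold in Cfb-/- mice (adjusted p = 4.67e-06). Msr1, the class A scavenger receptor, ranged from 0.0269 to 0.0383 FPKM in control mice and from 0.224 to 0.473 FPKM in diabetic mice, with log2 differences of 1.66 and 1.64. The size of the Msr1 differences depends on the constant added. They were 0.35 and 0.36 with 1 FPKM added and 2.97 and 2.88 with 0.01 FPKM added.

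Cd163, the receptor for hemoglobin bound to haptoglobin, had the highest adjusted p among the genes called in WT mice. It had 0.0889, 0.0197, and 0.0181 FPKM in WT control mice, 0.0509, 0.0176, and 0.0289 FPKM in Cfb-/- control mice, 0.192, 0.0811, 0.194, and 0.116 FPKM in WT diabetic mice, and 0.238, 0.220, 0.0621, and 0.114 FPKM in Cfb-/- diabetic mice. The first WT control mouse and the second WT diabetic mouse overlapped. Cd163 rose by 0.80 in WT mice (limma adjusted p = 0.0402) and by 0.91 in Cfb-/- mice (adjusted p = 0.0283). The WT call was lost without diabetic mouse 1, 3, or 4 or control mouse 2 or 3 (adjusted p from 0.0505 to 0.143), and the Cfb-/- call without diabetic mouse 1 or 2 or control mouse 2 or 3 (0.0692 to 0.0987). With 1 FPKM added before the logarithm both calls were lost (log2 differences of 0.14 and 0.16, adjusted p = 0.0799 and 0.0511), and with 0.01 FPKM added the differences were 1.76 and 1.90.

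Gpnmb, a glycoprotein of lysosomes in lipid-laden macrophages, had 0.0473, 0.0467, and 0.0324 FPKM in WT control mice, 0.146, 0.106, and 0.229 FPKM in Cfb-/- control mice, 1.52, 0.930, 0.733, and 1.32 FPKM in WT diabetic mice, and 2.73, 1.51, 0.842, and 1.57 FPKM in Cfb-/- diabetic mice. The first Cfb-/- diabetic mouse stood well above the rest. Gpnmb rose 8.35-fold in WT mice (log2 SE 0.32, limma adjusted p = 1.27e-05) and 6.42-fold in Cfb-/- mice (log2 SE 0.32, adjusted p = 3.48e-05). With 1 FPKM added the log2 differences of Gpnmb were 1.01 in WT and 1.16 in Cfb-/- mice, and with 0.01 FPKM added 4.40 and 3.24, so their order turned. Lgals3, the galectin-3 that injured tubules make as well as macrophages, had 15.5, 23.8, and 24.3 FPKM in WT control mice, 17.2, 22.5, and 18.98 FPKM in Cfb-/- control mice, 55.6, 61.6, 53.4, and 83.7 FPKM in WT diabetic mice, and 92.1, 82.2, 46.6, and 53.7 FPKM in Cfb-/- diabetic mice. It rose by 1.58 in WT mice and by 1.76 in Cfb-/- mice on the log2 scale. All 6 injured tubule markers rose beside it in both genotypes, where 36.2% of all genes rose in WT mice and 27.4% in Cfb-/- mice. Their summed levels were 4.99 to 7.49 FPKM in control mice and 57.3 to 159 FPKM in diabetic mice. The part of these markers in the Lgals3 result was not tested.

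The phagocyte NADPH oxidase, which makes superoxide, had both of its tested members rise. Cybb, its membrane subunit NOX2, had 1.63, 1.02, and 1.56 FPKM in WT control mice, 1.20, 1.09, and 1.87 FPKM in Cfb-/- control mice, 6.56, 4.84, 5.93, and 6.23 FPKM in WT diabetic mice, and 6.85, 7.19, 5.69, and 5.67 FPKM in Cfb-/- diabetic mice. Ncf1, the cytosolic organizer p47phox, had 0.565 to 1.10 FPKM in control mice and 1.97 to 3.19 FPKM in diabetic mice. Cybb rose 4.03-fold and 4.43-fold, and Ncf1 3.31-fold and 3.23-fold, in WT and Cfb-/- mice (limma adjusted p at most 8.65e-05).

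Xcr1, the chemokine receptor of cross-presenting dendritic cells, was low throughout. It had 0.169, 0.195, and 0.328 FPKM in WT control mice, 0.240, 0.193, and 0.233 FPKM in Cfb-/- control mice, 0.432, 0.348, 0.335, and 0.482 FPKM in WT diabetic mice, and 0.424, 0.985, 0.300, and 0.379 FPKM in Cfb-/- diabetic mice. The difference of 0.62 in WT mice did not pass (SE 0.29, limma adjusted p = 0.0991), and Xcr1 rose by 0.84 in Cfb-/- mice (SE 0.29, adjusted p = 0.0403). That call was lost without Cfb-/- diabetic mouse 1 or 2 or without any of the 3 Cfb-/- control mice (adjusted p from 0.0622 to 0.121). In WT mice the sign of the Xcr1 difference turned with quantile normalization (log2 -0.19).

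The neutrophil genes S100a9 and S100a8 were not called higher in either genotype. S100a9, a subunit of the calprotectin complex of neutrophils and monocytes, had 1.34, 1.78, and 0.968 FPKM in WT control mice, 1.37, 3.63, and 1.61 FPKM in Cfb-/- control mice, 0.416, 1.25, 0.826, and 2.93 FPKM in WT diabetic mice, and 1.54, 0.483, 0.553, and 0.0991 FPKM in Cfb-/- diabetic mice. All groups overlapped, and WT diabetic mice ranged widely. The WT difference was -0.27 (SE 0.63, limma adjusted p = 0.745), whereas S100a9 fell by 1.83 in Cfb-/- mice (SE 0.63, adjusted p = 0.0374). The fall rested on single mice, since it no longer passed without Cfb-/- diabetic mouse 2, 3, or 4 or control mouse 2 or 3 (adjusted p from 0.0529 to 0.164). The interaction was -1.56 (SE 0.89, unadjusted p = 0.103), so the genotypes were not shown to differ in this change.

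S100a8, its partner, had 0.413, 2.62, and 1.49 FPKM in WT control mice, 1.86, 3.54, and 1.03 FPKM in Cfb-/- control mice, 0.422, 1.32, 0.587, and 2.52 FPKM in WT diabetic mice, and 2.07, 0.744, 0.757, and 1.63 FPKM in Cfb-/- diabetic mice. The log2 differences were -0.28 and -0.64 with an SE of 0.62, and neither passed (limma adjusted p = 0.733 and 0.454). The genes are neighbours on chromosome 3, S100a8 at chr3:90669071-90670034 and S100a9 at chr3:90692630-90695721. Both are made by neutrophils in blood, and red cell markers summed to between 315 and 886 FPKM in control mice and between 140 and 791 FPKM in diabetic mice. Their part in the S100a8 and S100a9 values was not tested.

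Both tested genes taken as signs of macrophage activation rose in WT mice, and neither passed in Cfb-/- mice. Nos2, the inducible nitric oxide synthase, had 0.0967 to 0.240 FPKM in control mice and 0.149 to 0.447 FPKM in diabetic mice. It rose by 0.87 in WT mice (limma adjusted p = 0.0164, but 0.0671 without control mouse 2). With quantile normalization the WT difference was 0.10 and did not pass (adjusted p = 0.739). The Nos2 difference of 0.56 in Cfb-/- mice did not pass (adjusted p = 0.120, but 0.0245 without diabetic mouse 3). Its interaction was -0.31, with an unadjusted p above 0.05 in limma, so the genotypes were not shown to differ in this change. Chil3, a chitinase-like protein also called Ym1 whose near copy Chil4 can share its reads, was listed at 0 in WT control mice 1 and 2 and at 0.0554 FPKM in mouse 3. It had 0.282, 0.352, and 0.180 FPKM in Cfb-/- control mice, 0.282, 0.288, 0.0931, and 0.437 FPKM in WT diabetic mice, and 0.495, 0.195, 0.193, and 0.0883 FPKM in Cfb-/- diabetic mice. Chil3 rose by 1.60 in WT mice (SE 0.39, limma adjusted p = 0.00445; a difference of 0.32 with 1 FPKM added and 3.75 with 0.01 FPKM added), while the Cfb-/- groups overlapped and differed by -0.22 (SE 0.39, adjusted p = 0.698).

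The question of the study was whether loss of factor B changes the diabetic kidney. Within diabetic mice, 0 of the 37 genes differed between Cfb-/- and WT mice at an adjusted p under 0.05 in limma, where 0.00671% of all tested genes did, a share made up of Cfb alone. By the p and fold thresholds of the study, applied here to limma, the count was also 0 (0.476% of all genes). With its count-based test, the study reported more genes over the whole transcriptome at these thresholds than limma gave here. At an unadjusted p under 0.05, 1 gene was higher in Cfb-/- mice (1.33% of all genes), namely Csf1, and 0 were lower (1.67%). The median log2 difference of Cfb-/- minus WT was 0.07 for the set and 0.04 for all tested genes, and the 37 values ran from -0.99 for S100a9 to 0.50 for Csf1. The genotypes overlapped in all 37 genes. Of all genes, 1.86% stood apart with Cfb-/- higher and 0.885% with Cfb-/- lower, so the 0 of 37 is near the share of all genes.

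The confidence intervals bound how large a genotype difference could be. The 95% interval lay within a 2-fold change either way for 33 of the 37 genes in diabetic mice, and reached beyond it for Clec4n, Gpnmb, S100a8, and S100a9. For Cd68 the interval of the log2 difference was -0.39 to 0.56, for Adgre1 -0.37 to 0.66, for Trem2 -0.75 to 0.84, and for S100a9 -2.25 to 0.26. Csf1 was higher in Cfb-/- diabetic mice by 0.50 (SE 0.23, unadjusted p = 0.0473, limma adjusted p = 1), and a two-sided exact permutation test of 4 mice against 4 gave p = 0.171, where 0.0286 is the smallest possible. Csf1 did not rest on all Cfb-/- mice, since mice 1 and 2 lay above all WT diabetic mice and mice 3 and 4 inside their range.

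**Figure D4:**
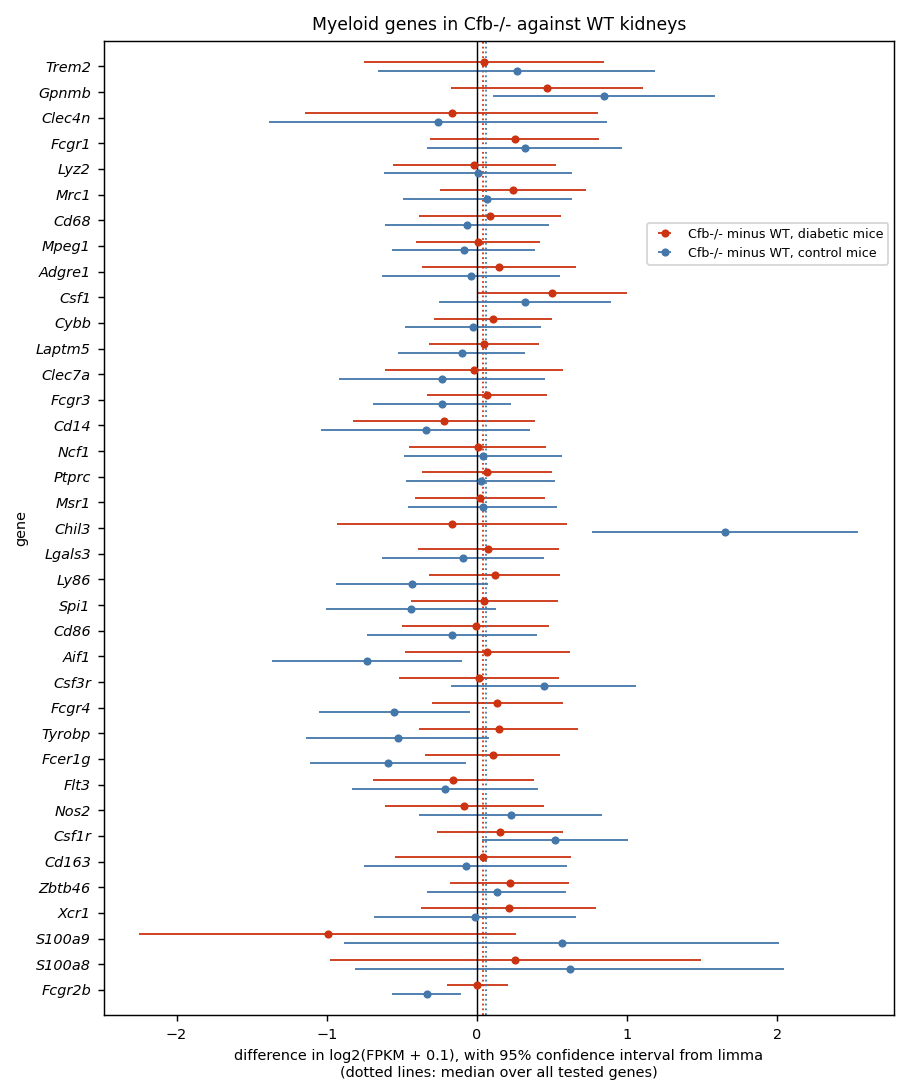
Difference in log2(FPKM + 0.1) of Cfb-/- minus WT mice for the 37 tested genes, in diabetic mice (red) and control mice (blue), with the 95% confidence interval from limma. Dotted lines mark the median over all tested genes. Points for diabetic mice lie between -0.99 (S100a9) and 0.50 (Csf1), and the largest difference in control mice is that of Chil3, at 1.65.

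Mice of the same diabetic group differed as a whole across the set. Cfb-/- diabetic mouse 1 held the highest value of its group for 18 of the 37 genes and mouse 2 for 19, and mice 3 and 4 held none. In WT diabetic mice, mouse 4 was highest for 20 genes and mouse 1 for 14. Summed over the 37 genes, Cfb-/- diabetic mice 1 to 4 had 574, 542, 337, and 409 FPKM, and WT diabetic mice 1 to 4 had 456, 403, 369, and 542 FPKM. Over all genes the FPKM sum ran from 330246 to 488196 among the 14 mice. How often each mouse was highest over all tested genes was not counted. Leaving out each diabetic mouse in turn kept the number of genes called between genotypes at 0.

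Within control mice, 0 of the 37 genes passed the adjusted threshold between genotypes (0.00671% of all genes), and 7 had an unadjusted p under 0.05, where 17.5% of all genes did. Csf1r, Gpnmb, and Chil3 were higher in Cfb-/- mice by 0.52, 0.85, and 1.65 on the log2 scale. Aif1, Fcer1g, Fcgr4, and Fcgr2b were lower, with differences of -0.73, -0.59, -0.55, and -0.34. Their limma adjusted p lay between 0.235 and 0.269. All 3 Cfb-/- control mice stood below all 3 WT control mice for Spi1, Aif1, Fcer1g, Fcgr2b, Fcgr3, and Fcgr4 (7.12% of all genes), and above them for Csf1, Gpnmb, and Chil3 (6.67%). Without WT control mouse 1, 6.34% of all genes were called higher and 5.14% lower between control genotypes, and 0 of the 37 were (lowest adjusted p 0.0516, for Chil3). The Chil3 difference was 0.32 with 1 FPKM added before the logarithm and 3.86 with 0.01 FPKM added.

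The test of the difference between the 2 diabetes comparisons called 0 of the 37 genes and 0 of all genes (0%). At an unadjusted p under 0.05 it gave 4 genes, where 5.77% of all genes passed. Fcer1g, Fcgr4, and Fcgr2b had interactions of 0.70, 0.69, and 0.34, and Chil3 of -1.82 (SE 0.55, limma adjusted p = 0.779). Cfb-/- minus WT differences of these 4 genes in diabetic mice were 0.11, 0.14, 0.00, and -0.17, beside the differences in control mice given above.

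Levels were also set relative to Ptprc, a ratio chosen after seeing the data and given without a test. The ratio moves with Ptprc itself, which rose 3.24-fold in WT and 3.33-fold in Cfb-/- mice, and with RNA of other kidney cells that make the same genes. In all 8 diabetic mice, 8 genes had a higher ratio to Ptprc than in any control mouse, namely Mpeg1, Lyz2, Fcgr1, Trem2, Mrc1, Msr1, Gpnmb, and Cybb, which held for 1.03% of all other tested genes. Zbtb46, Fcgr2b, and S100a9 had a lower ratio in all 8, as did 68.2% of all other tested genes, and the other 25 genes overlapped. The FPKM ratio of Trem2 to Ptprc ran from 0 to 0.157 in control mice and from 0.370 to 0.721 in diabetic mice. That of Fcgr2b ran from 9.57 to 21.8 in control mice and from 2.45 to 4.39 in diabetic mice, and that of Zbtb46 from 0.564 to 0.740 and from 0.244 to 0.356. Csf1r ratios overlapped, at 3.03 to 10.3 and 2.76 to 4.38.

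**Figure D5:**
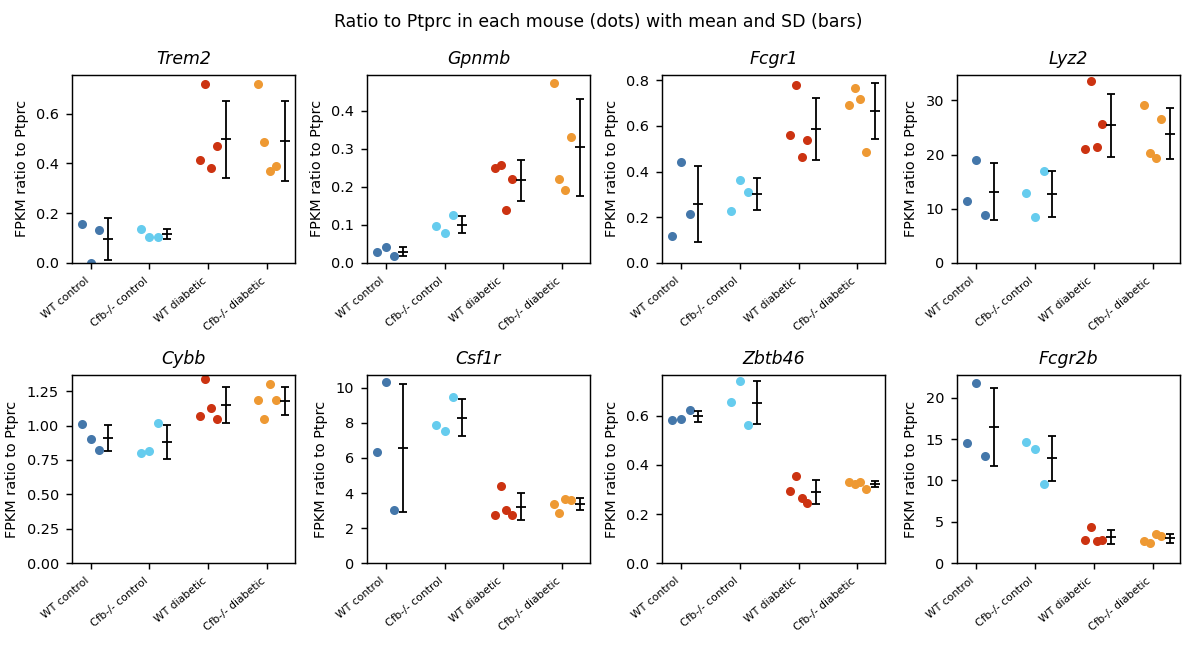
FPKM ratio to Ptprc in each mouse (dots), with the mean and SD of the group (black bars), for 8 genes. Trem2, Gpnmb, Fcgr1, Lyz2, and Cybb have higher ratios in all 8 diabetic mice than in the 6 control mice, Zbtb46 and Fcgr2b have lower ones, and Csf1r overlaps.

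Further genes of the same cells were counted from lists. These lists were chosen with earlier results of these data known, so their counts are not independent support. Of 41 further macrophage genes tested, 35 rose and 2 fell in WT mice, and 36 rose and 0 fell in Cfb-/- mice, with median log2 differences of 1.49 and 1.80. Spp1, the osteopontin that tubules make too, and Ms4a7 and Ms4a6c, membrane proteins of macrophages, rose by 2.78, 2.29, and 2.61 in WT mice. Lyve1, a hyaluronan receptor of lymphatic endothelium and some resident macrophages, rose by 2.26 and reached 0.1 FPKM in diabetic mice only. The genes that fell in WT mice, named after their values were seen, were Maf, a transcription factor of macrophages and other cells, and Cyba, the partner subunit p22phox of Cybb that epithelium makes too. Cyba stood at 389.6 to 633 FPKM in WT control and 261 to 355 FPKM in WT diabetic mice and fell by 0.78 on the log2 scale (limma adjusted p = 0.00177), with 306 to 415 FPKM in Cfb-/- control mice, 251 to 285 FPKM in Cfb-/- diabetic mice, and a difference of -0.43 (adjusted p = 0.0549). Of 13 further dendritic cell genes, 9 rose in WT mice, and in Cfb-/- mice 10 rose and 1, the transcriptional regulator Id2, fell, with medians of 1.05 and 1.09. Bst2, Clec10a, Irf4, and Ccr7 had the largest WT rises, at 2.21, 1.99, 1.94, and 1.36.

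Of 18 further neutrophil genes, 8 could be tested, of which 4 rose in WT mice and 5 in Cfb-/- mice (medians of 0.80 and 1.09). The risers in WT mice were S100a6, Prtn3, Fpr2, and Fpr1, of which S100a6 is also made by epithelium. Prtn3 was listed at 0 in all 6 control mice, so it passed the filter through the diabetic mice in which it is high. The size of its difference depends on the 0.1 FPKM added. S100a6 alone had 15.2 to 23.5 FPKM in control mice and 65.2 to 140.6 FPKM in diabetic mice, whereas the other 17 genes summed to between 0.736 and 1.68 FPKM and between 1.67 and 3.09 FPKM. Of this list, Ly6g, Mpo, Elane, Prtn3, and Stfa2l1 were listed at 0 in all 6 control mice. Ly6g, Elane, and Cebpe were at 0 in all 4 Cfb-/- diabetic mice. In WT diabetic mice, Ly6g, Mpo, and Elane reached at most 0.0588, 0.0397, and 0.0765 FPKM. Other genes of the list were above 0 in all 6 control mice, among them Ltf (0.0689 to 0.153 FPKM) and Cxcr2 (0.0148 to 0.114 FPKM). These list counts stand against 36.2% of all genes called higher in WT mice and 27.4% in Cfb-/- mice. Of the 15 T cell and NK markers, 8 rose in WT mice and 12 in Cfb-/- mice, and of 9 B cell and plasma cell markers, 5 and 3 rose, the latter a share near that of all genes. The 1 mast cell marker tested rose in Cfb-/- mice only, and that difference between genotypes was not called. Red cell markers fell in 2 of 6 genes in WT mice, where 1 rose, and in 4 of 6 in Cfb-/- mice. Adipocyte markers rose in 5 of 5 tested genes in WT mice and 1 of 5 in Cfb-/- mice, and urothelium markers in 6 of 6 and 0 of 6. Proximal tubule markers fell in 6 of 8 genes in WT mice and 7 of 8 in Cfb-/- mice. The part of these shifts in the rise of the macrophage genes was not tested. In either genotype comparison, 0 genes of these lists were called.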

How the data were processed

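Kidney RNA of 14 mice had been sequenced as stranded mRNA libraries read from both ends. Values deposited by the authors are FPKM for each gene, 1 table a mouse, a unit read from the values. The submitters' processing notes name Trimmomatic, HISAT2, Cufflinks, HTSeq, and DESeq, without versions or roles, and the build GRCm38.p6. The test named in the methods needs read counts, so limma 3.58.1 in R 4.3.3 was fitted with a mean-variance trend to log2(FPKM + 0.1) of all 14 mice, with a mean per group. A fold is on this scale and understates changes of low genes. Benjamini-Hochberg adjustment ran over 14912 genes with at least 0.1 FPKM in at least 3 mice. Samples were grouped by title, and nothing ties replicate numbers to litters or batches. Absolute depth is unknown, so no counting interval is given. Each gene's role was set by hand. Genes were named by role: the largest and smallest WT difference, any fall, and any unadjusted p under 0.05 between genotypes. From each other list, up to 4 genes with the largest WT changes were named. The members, roles, and lists were chosen with earlier results of these data known. The fit was tested on simulated data. Alternatives were other pseudocounts, filters, and scalings, the groups alone, a replicate block, and leaving out each mouse. Tables used Python 3.11.15 with pandas 2.3.3, scipy 1.17.1, and matplotlib 3.10.9.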

Additional observations from a re-analysis of the deposited data

How the results depend on the processing

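The counts of genes called higher kept within 1.5 times of those reported under each alternative, with 30 to 33 in WT mice and 28 to 32 in Cfb-/- mice when single mice were left out. The median log2 difference moved by more than the spread between mice with 1 FPKM added (1.11 in WT and 1.38 in Cfb-/- mice) and with quantile normalization (1.21 and 1.57). The number of genes called lower in Cfb-/- mice was 0 with no filter, with the groups alone, with the replicate block, and without the mice with urothelium markers, and it was 2 with median-ratio scaling or quantile normalization, and 0 to 1 without single mice. In WT mice it was 0 without the mice with urothelium markers. The number of genes with p under 0.05 and over 2-fold in Cfb-/- against WT control mice was 0 with 1 FPKM added or a filter of 1 FPKM, 2 with 0.01 FPKM added, and 1 to 2 without single mice. For the interaction it was 1 without the mice with urothelium markers. Signs turned with quantile normalization for Xcr1 (-0.19) and Zbtb46 (-0.019) in WT and Nos2 (-0.092) in Cfb-/- mice. Without single mice, the Chil3 difference in Cfb-/- mice ran from -0.52 to 0.030 (positive without diabetic mouse 4), and in WT mice S100a8 ran from -0.95 to 0.25 (positive without diabetic mouse 1, at 0.066, or control mouse 2) and S100a9 from -0.72 to 0.13 (positive without diabetic mouse 1). Changed calls concerned 11 genes, and the cause was not tested. With quantile normalization, 15.9% of all genes were called higher and 20.1% lower in WT mice, and the median of all genes was -0.05, with 28 genes of the set called higher there and 26 in Cfb-/- mice (14.4% of all genes higher and 14.9% lower). With the replicate block, 33 genes were called higher in WT and 30 in Cfb-/- mice, and the S100a9 and Xcr1 calls of Cfb-/- mice were lost (adjusted p = 0.0802 and 0.0820). Same-numbered mice deviated with r from -0.39 to 0.24 over 19 pairs, 0 mice were most like their own number, and the numbers are not read as pairs. The Csf1 difference between diabetic genotypes was 0.30 to 0.67 without single mice. Depth limits the genes near 0.1 FPKM.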
